A study of Bos taurus with 2 samples.

Results

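CpG methylation of cattle bone was examined at 6 genes known from osteocytes, SOST, DKK1, DMP1, MEPE, FGF23 and PDPN. They are 6 of the 21162 protein-coding genes placed on chromosomes 1 to 29 and X, and were chosen by name, with no threshold on their methylation. Osteocytes are the cells enclosed in the mineralized bone matrix, where they form a network that senses load and steers bone formation, resorption and phosphate balance. SOST (sclerostin) and DKK1 are secreted antagonists that bind the Wnt co-receptors LRP5 and LRP6. DMP1 and MEPE are acidic matrix proteins of the family that also holds SPP1, IBSP and DSPP, FGF23 is the hormone that lowers renal phosphate reabsorption, and PDPN (podoplanin, E11) is a membrane glycoprotein of young osteocytes, lymphatic vessels and podocytes. In mammals, CpG-rich promoters are mostly unmethylated in all tissues, whereas CpG-poor promoters are often methylated in tissues that do not use them.

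The data are whole-genome bisulfite sequencing (WGBS) of 2 bone samples, Bone_1 and Bone_2, labelled as bone of female Holstein cattle, with no age, treatment or animal number. Bisulfite converts unmethylated cytosines, so that each read over a CpG cytosine adds a methylated or an unmethylated call. Methylation levels are methylated calls over all calls of a region, in percent, with both strands summed, and bracketed ranges are 95% Wilson intervals of counting error. The samples form a single group and no other condition was studied, so comparisons are between genes and between the samples. Whether they come from 1 or 2 animals is not stated, so SDs describe only the spread between these libraries. The p-values set a difference between the libraries against the counting error of calls, and hold no spread between animals. Bone is a mixture of bone, marrow, vessel and fat cells. A share of cells that lack methylation and a partial loss in every cell therefore cannot be told apart.

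The samples differed across the genome. On chromosomes 1 to 29 and X, CpG methylation was 72.3% in Bone_1, from 462047525 calls, and 58.7% in Bone_2, from 406703424 calls. Mitochondrial cytosines gave 0.365% and 0.364%. Of CpG sites with at least 20 calls, 29.8% in Bone_1 and 0.212% in Bone_2 had calls from a single strand only, and the part of this imbalance in any difference below was not tested.

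The gene positions come from a RefSeq table of assembly ARS-UCD2.0, whereas the submitters' notes name ARS-UCD1.2 and the counts name none. Gene ends nevertheless met the methylation dips in the counts. Of 42324 gene ends, 37.1% lay within 200 bp of a block of low methylation (defined below), compared with 11.2% after a shift of 2000 bp and 7.94% after one of 10000 bp. Within 1 Mb of the genes, 69 of 152 ends met a block near SOST, 17 of 46 near DMP1, 15 of 37 near MEPE, 13 of 38 near FGF23, 4 of 34 near PDPN and 1 of 5 near DKK1, so the placement has the least support around PDPN and DKK1. The table gives no strand. The end that holds the transcription start site was read from the neighbouring genes, whose order matched that around the human genes: DUSP3 before SOST, PRKG1 before DKK1, DSPP before DMP1, IBSP before MEPE, FGF6 before FGF23 and LRRC38 before PDPN. For DMP1 this rests on DSPP alone, as IBSP, which follows DMP1 in human, lies next to MEPE elsewhere on chromosome 6. If its start were at the other end, the DMP1 promoter would be at 69.0% in place of 49.8%. Distances below are from that end, negative upstream, and positions are those of the deposited counts.

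Promoters, taken from 1000 bp upstream to 500 bp downstream of the start, fell into 2 kinds. PDPN and DKK1 had CpG-rich promoters that were almost unmethylated in both samples. The promoters of SOST, DMP1, MEPE and FGF23 held fewer CpG sites (11 to 29, beside a median of 29 over all gene-end windows) and were partly to mostly methylated. By the limit of 30% in both samples, 2 of 6 promoters were low, beside 32.3% of the 41039 gene-end windows of the same size with at least 20 calls in each sample. All 6 promoters passed this minimum. Those windows take both ends of every gene, so many of them are not promoters. Counting only the CpG-richer end of each gene, 2 of the 6 genes were low, beside 58.8% of all genes.

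**Figure D1:**
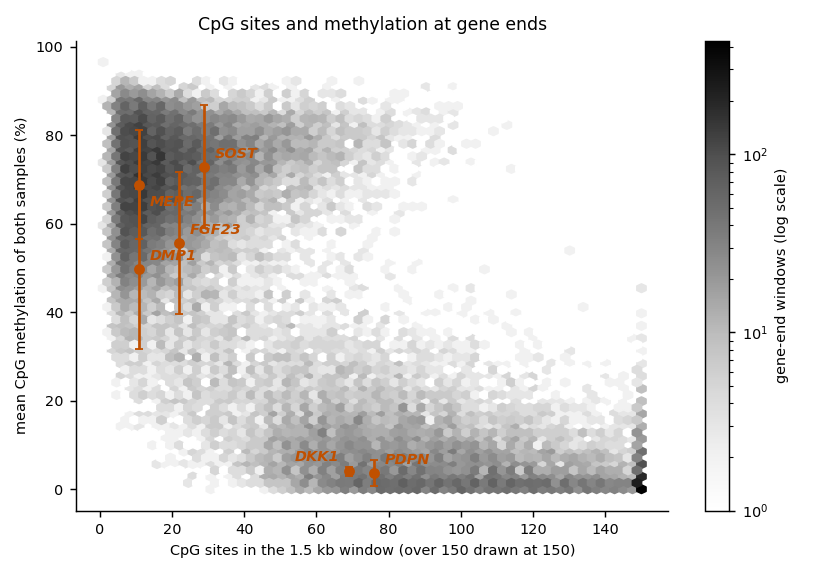
Number of CpG sites in a 1.5 kb gene-end window (horizontal) against its methylation, the mean of both samples in percent (vertical), for 41039 windows in grey on a log colour scale. The 6 promoters are in orange with the SD of both samples (n = 2): PDPN (76 sites) and DKK1 (69) sit in the unmethylated CpG-rich cloud, and SOST (29), FGF23 (22), DMP1 (11) and MEPE (11) below or at the median of 29 sites of all windows.

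DKK1 had 69 CpG sites in its promoter, on chromosome 26. The level was 3.37% in Bone_1 (2.47 to 4.59%, 1127 calls) and 4.81% in Bone_2 (3.28 to 7.0%, 520 calls), or 4.09% ± 1.02 (SD, n = 2). The samples overlapped in their intervals, and the difference of 1.44 percentage points (95% interval -0.52 to 3.81) did not pass Fisher's exact test (two-sided, adjusted p = 0.209, Benjamini-Hochberg over all gene-end windows). Of the 45 sites with at least 5 calls in both samples, 22 had no methylated call in either. At a site with 5 calls, 0 methylated still allows a level of up to 60%, here and in such counts below.

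PDPN had 76 sites, on chromosome 16. Its promoter was at 5.85% in Bone_1 (4.46 to 7.63%, 855 calls) and 1.64% in Bone_2 (0.86 to 3.08%, 550 calls), or 3.74% ± 2.98 (SD, n = 2). Both levels were near 0, and that of Bone_2 was lower by Fisher's exact test (adjusted p = 1.43e-04). In the 500 bp after the start, Bone_1 had 3.85% and Bone_2 0 of 196 calls, which allows a level of up to 1.53%. No methylated call was found in either sample at 34 of the 63 sites read at least 5 times in both.

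SOST, on chromosome 19, had a mostly methylated promoter. Its 29 sites gave 82.7% in Bone_1 (78.9 to 85.9%, 451 calls) and 63.0% in Bone_2 (57.8 to 68.0%, 341 calls), or 72.9% ± 13.9 (SD, n = 2). Of 25 sites with at least 5 calls in both samples, 24 were lower in Bone_2 and 16 were over 50% in both, and none was at or under 10% in both. The difference passed Fisher's exact test (adjusted p = 2.81e-09).

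MEPE, on chromosome 6, had 11 promoter sites, with a level of 77.6% in Bone_1 (72.0 to 82.3%, 254 calls) and 60.2% in Bone_2 (55.0 to 65.2%, 349 calls), or 68.9% ± 12.3 (SD, n = 2). The samples did not overlap, and Bone_2 was lower at 10 of the 11 sites (Fisher's exact test over all calls, adjusted p = 1.79e-05). The 5 sites after the start were at 98.0% in Bone_1 and 62.4% in Bone_2. A single site apart from its neighbours lay at -499 bp (position 36864669), with 11 of 30 calls methylated in Bone_1 and 1 of 31 in Bone_2, whereas the site at -485 bp had 24 of 31 and 26 of 34. This site was named after its values were seen.

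FGF23, on chromosome 5, had 22 promoter sites. They were methylated to 67.1% in Bone_1 (61.8 to 72.0%, 322 calls) and 44.3% in Bone_2 (38.2 to 50.5%, 244 calls), or 55.7% ± 16.1 (SD, n = 2), and the samples did not overlap (Fisher's exact test, adjusted p = 2.29e-07). The 1000 bp before the start were at 77.1% and 46.4%. In the 500 bp after it the levels were 43.2% and 38.1%, on 95 and 63 calls.

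DMP1, on chromosome 6, was lower around its start than further upstream. The whole promoter of 11 sites was at 62.7% in Bone_1 (54.5 to 70.2%, 142 calls) and 37.0% in Bone_2 (31.1 to 43.4%, 235 calls), or 49.8% ± 18.1 (SD, n = 2; Fisher's exact test, adjusted p = 4.52e-06). Upstream of the start, 6 sites gave 77.8% and 52.1%, and downstream of it, 5 sites gave 14.7% and 21.6%. In Bone_1 the upstream sites took 108 calls and the downstream sites 34, whereas Bone_2 had 119 and 116. The unweighted mean over the 11 sites was 46.4% in Bone_1 and 39.2% in Bone_2, a difference of -7.20 points in place of -25.7.

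Single sites of DMP1 were lower from just before the start. At -575 bp, 29 of 30 calls were methylated in Bone_1 and 10 of 15 in Bone_2. At -92 bp, the site nearest to the start on its upstream side, 2 of 6 and 10 of 27 were. At +52 bp there was no methylated call among 5 in Bone_1 and 17 in Bone_2, which allows up to 60% and 17.6%. At +301 bp there was none among 8 and 26, which allows up to 37.5% and 11.5%. Between these downstream sites, at +196 bp, 3 of 7 and 15 of 25 calls were methylated, so low and intermediate sites alternated. All 11 promoter sites of DMP1 had calls from a single strand in Bone_1, compared with 6 of 11 in MEPE, 7 of 22 in FGF23, 8 of 29 in SOST, 22 of 76 in PDPN and 26 of 65 in DKK1. In Bone_2 such sites numbered 0 in DMP1, MEPE, FGF23 and SOST, 1 of 76 in PDPN and 3 of 69 in DKK1.

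**Figure D2:**
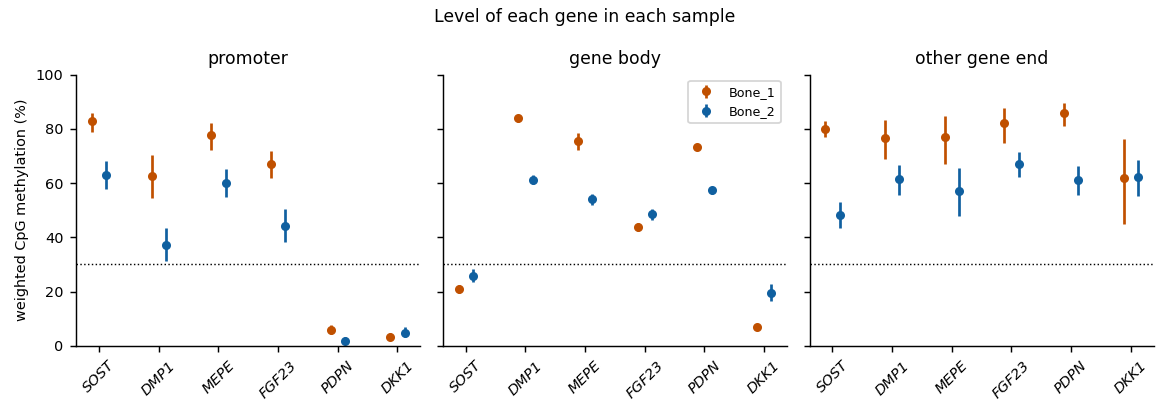
Methylation level in percent (vertical) of the 6 genes (horizontal) in the promoter, the gene body and the window at the other gene end, with 95% Wilson intervals of counting error. Bone_1 is orange, Bone_2 blue and the dotted line marks 30%: PDPN and DKK1 promoters are below 6% in both samples, and SOST, with a promoter over 60%, has a gene body below 30%.

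Set against all genes, 5 of the 6 promoters were lower in Bone_2 and none was higher by Fisher's exact test, while 54.7% of gene-end windows were lower and 15.3% higher. The test compares the calls of 2 libraries, and calls of the same read are not independent. Against the genome-wide odds ratio between the samples (1.84) in place of equality, by the same exact test, 1 promoter was lower in Bone_2 (SOST, adjusted p = 0.0306) and 1 was higher (DKK1, adjusted p = 0.00118), beside 20.9% and 27.9% of gene-end windows. DMP1, MEPE, FGF23 and PDPN gave in this exact test an adjusted p = 0.0975, 0.380, 0.105 and 0.0938. Lower and higher are here relative to that ratio. Gene ends at or under 30% in both samples had a median difference of 1.14 points, and the other gene ends -16.3. DKK1 was at 1.44 and PDPN at -4.21 points, and the 4 methylated promoters were between -25.7 and -17.4. The levels of the 4 methylated promoters ran in the order DMP1, FGF23, MEPE and SOST in both samples, although each pair of neighbours in that order differed by less than the larger of their SDs. With a promoter from 2000 bp upstream, MEPE (82.1% and 62.1%) was above SOST (78.2% and 58.1%) in both samples, and by unweighted site means it was above SOST in Bone_1 (84.0% against 83.4%). PDPN and DKK1 changed places between the samples.

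Gene bodies gave a different order. SOST, with its methylated promoter, had a gene body of 4892 bp at 20.9% in Bone_1 (19.5 to 22.4%) and 25.8% in Bone_2 (23.4 to 28.4%), over 163 sites. The body of DKK1, 2451 bp, was at 6.90% and 19.4%. In FGF23 (11456 bp) it was 43.8% and 48.6%. DMP1 (16791 bp) had 83.8% and 61.3%, MEPE (14071 bp) 75.6% and 54.1%, and PDPN (32229 bp) 73.4% and 57.4%. SOST and DKK1 were thus low in both samples, beside 5.26% of gene bodies, and MEPE and PDPN lay near the medians of 72.1% and 58.8%. The low level of SOST depended on the sites used. Its unweighted mean in Bone_1 was 38.4% over sites with at least 5 calls in both samples, and 28.4% with that minimum in Bone_1 alone.

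By Fisher's exact test on the calls, 3 of 6 bodies were lower in Bone_2 (DMP1, MEPE, PDPN) and 3 were higher (SOST, FGF23, DKK1), beside 76.3% and 14.2% of 21007 gene bodies. The 3 higher values depended on the weighting and the sites used. Averaged over sites with at least 5 calls in both samples, SOST was at 38.4% in Bone_1 and 27.2% in Bone_2, FGF23 at 66.6% and 48.4%, and DKK1 at 15.5% and 12.9%, so all 3 were lower in Bone_2 there. That choice kept 169 of 257 sites in FGF23. With the minimum applied to each sample separately, the site means were 28.4% and 24.4% in SOST, 47.6% and 48.7% in FGF23 and 13.3% and 13.1% in DKK1. These means need not cover the same sites in both samples. The slightly higher FGF23 value in Bone_2 is therefore not a difference at shared sites. The densest block of SOST had 22.9 calls per site in Bone_1 and 5.34 in Bone_2, and that of FGF23 had 23.7 and 2.91. Other blocks went the other way, such as the upstream block of DKK1 with 7.57 and 21.9, and the part of depth in these differences was not tested.

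The CpG-densest stretches of low methylation in SOST and FGF23 lay inside the gene, away from its start. To place low methylation, low blocks were defined after values had been seen. They were runs of CpG sites that each lay in a low group of 5 neighbouring sites. Such a group was at or under 30% in both samples, with at least 10 calls per sample and a span of at most 1000 bp. Other groups of 5 sites within a block could be over 30%. Runs up to 500 bp apart were joined where the sites between them were low too. The 6 genes held 14 such blocks in the gene or within 10 kb of its start, 9 of them overlapping the gene. The count includes a block upstream of SOST that lay past the near end of its neighbour DUSP3. All 6 genes were overlapped by a block, beside 78.3% of protein-coding genes. Across the genome there were 77070 blocks, or 2.93 per 100 kb.

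SOST had 3 blocks in the gene, of which the densest ran from +2230 to +3825 bp (chromosome 19, CpG positions 43645422 to 43647017). It held 97 of the gene's 163 sites in 1597 bp, with 1.58% methylated in Bone_1 (1.14 to 2.18%, 2221 calls) and 4.83% in Bone_2 (3.29 to 7.03%, 518 calls). Of 46 sites with at least 5 calls in both samples, 35 had no methylated call in either, although Bone_2 had only 5.34 calls per site over the block. The block ended 1067 bp before the 3′ end. A block of 5 sites lay over the 3′ end itself, from +4578 to +4940 bp, at 26.8% and 28.9% (41 and 152 calls), although the 1500 bp window at that end was at 79.97% in Bone_1 and 48.2% in Bone_2. The other block, from +1242 to +1598 bp, rested on 15 and 37 calls. A block of at least 50 sites inside, as in SOST, was found in 9.73% of protein-coding genes (2059 of 21162), and a block of any size inside in 40.9%. Inside meant at least 1000 bp from the gene end of lower position and 500 bp from the other. Nothing in the gene table says whether the dense block covers an exon or an intron.

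FGF23 had 4 blocks, 2 in the gene and 2 upstream. The densest, from +8873 to +9683 bp (chromosome 5, positions 105725491 to 105726301), held 87 sites in 812 bp and was at 1.60% in Bone_1 (1.14 to 2.24%, 2061 calls) and 5.14% in Bone_2 (3.03 to 8.59%, 253 calls). Only 15 of its sites had at least 5 calls in both samples, and 12 of these were at or under 10% in both. The other block in the gene, from +510 to +1032 bp, held 14 sites at 18.8% (176 calls) and 13.6% (140 calls). It began just past the promoter window, and the first 1 kb of the gene was at 24.6% and 19.1%. Upstream, 9 sites from -8920 to -8742 bp were at 29.9% and 23.7%, and 15 sites from -6130 to -5825 bp at 6% and 18.4%, on 50 and 114 calls.

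**Figure D3:**
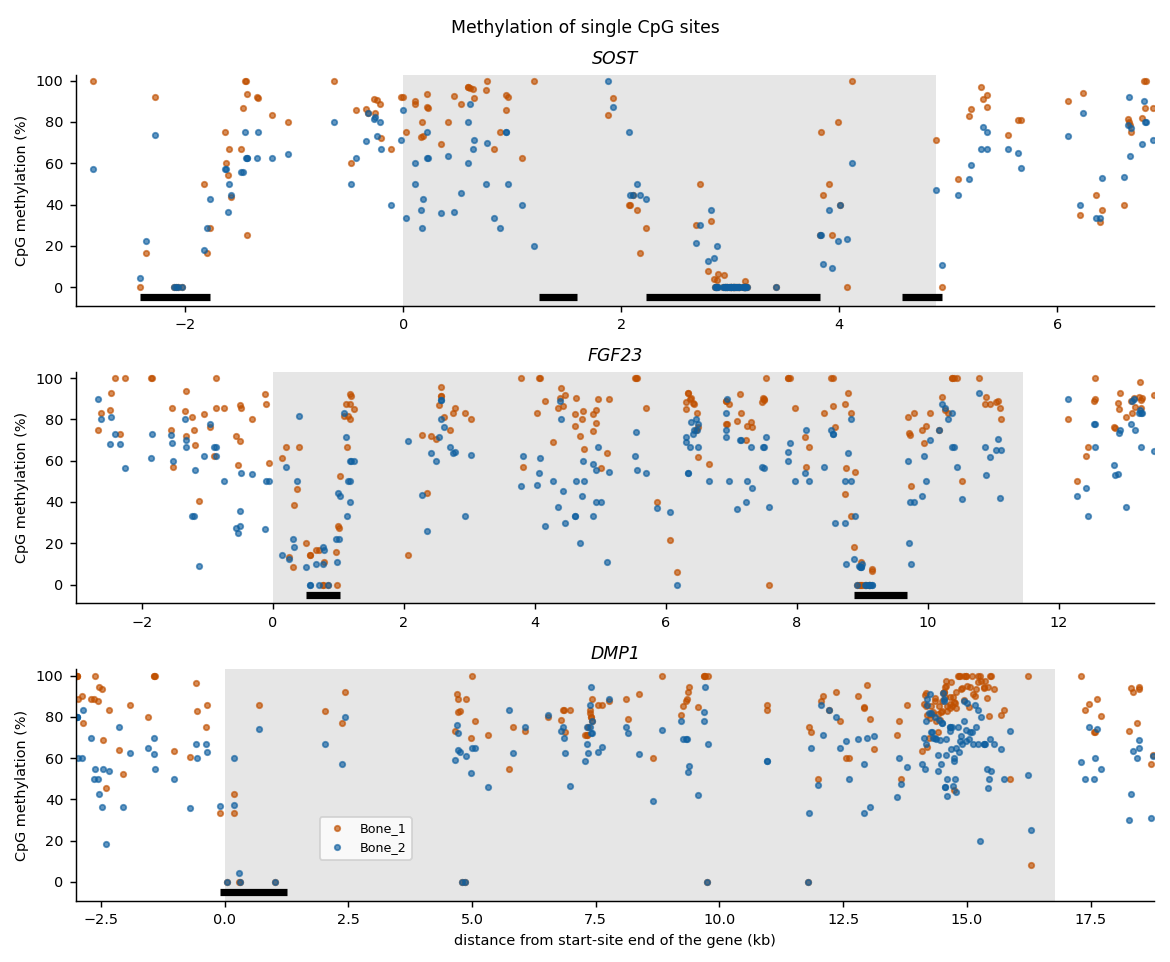
Methylation in percent (vertical) of single CpG sites with at least 5 calls in both samples against distance from the start in kb (horizontal) for SOST, FGF23 and DMP1. Orange is Bone_1, blue Bone_2, grey shading the gene and black bars the low blocks: in SOST and FGF23 many sites near 0% gather in blocks inside the gene, from +2230 and from +8873 bp, and in DMP1 the low block lies over the start.

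DMP1 had a single block, which spanned the start from -92 to +1266 bp (chromosome 6, positions 102526209 to 102527567). Its 9 sites in 1360 bp were at 23.2% in Bone_1 (14.1 to 35.8%, 56 calls) and 24.0% in Bone_2 (18.9 to 29.95%, 229 calls). Since blocks had to be low in both samples, their likeness here was fixed by the choice. With 0.662 sites per 100 bp it was sparser than the blocks of SOST (6.07) and FGF23 (10.7). The block also held a methylated site at +684 bp, at 85.7% in Bone_1 (7 calls) and 74.1% in Bone_2 (27 calls). No 1 kb window around DMP1 was at or under 30% in both samples, since the first 1 kb of the gene was at 26.8% in Bone_1 and 31.5% in Bone_2. Further inside DMP1, 4 lone sites had no methylated call in either sample among methylated neighbours, at +4798, +4853, +9741 and +11787 bp. The first had 22 calls in Bone_1 and 13 in Bone_2, with sites within 500 bp at 76.4% and 53.2%. Those at +9741 and +11787 bp had only 7 calls each in Bone_1. Whether these samples carry a CpG at the lone sites was not tested. A CpG-dense stretch of DMP1, from +14000 to +16000 bp (positions 102540391 to 102542183), held 77 of the 193 sites in the gene and was methylated, at 88.2% in Bone_1 (86.8 to 89.4%, 2351 calls) and 67.3% in Bone_2 (64.3 to 70.2%, 949 calls). Its bounds were set by hand after its values were seen. It was methylated, unlike the dense stretches inside SOST and FGF23, but those were denser (97 sites in 1597 bp and 87 in 812 bp).

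MEPE had no low block at its start. Its block lay from +5746 to +6893 bp (chromosome 6, positions 36857277 to 36858424), with 12 sites at 15.2% in Bone_1 (7.57 to 28.2%, 46 calls) and 13.6% in Bone_2 (9.88 to 18.5%, 242 calls). Only 2 of these sites had at least 5 calls in both samples. Of the 20 windows of MEPE, 14 reached 20 calls in both samples.

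In PDPN and DKK1 the low block covered the start. That of PDPN ran from -1119 to +693 bp (chromosome 16, positions 54042336 to 54044148), with 85 sites at 8.63% in Bone_1 (7.03 to 10.6%) and 3.62% in Bone_2 (2.40 to 5.42%). That of DKK1 ran from -1181 to +1131 bp (chromosome 26, positions 6848174 to 6850486), with 105 sites at 4.59% (3.79 to 5.54%) and 7.26% (5.68 to 9.23%). DKK1 had a further block upstream, from -7328 to -6589 bp, where 23 sites were at 16.7% and 15.7%. Both of its flanks were over 30%. Of all gene ends, 34.1% lay inside a low block. SOST also had 2 upstream blocks. The farther, from -10174 to -9557 bp, lay past the near end of the neighbouring gene DUSP3, which is 3566 bp from the SOST start. Its 10 sites were at 19.4% and 27.1%. The nearer ran from -2417 to -1770 bp, with 11 sites at 21.5% and 21.6%. Of its 10 sites with at least 5 calls in both samples, 4 had no methylated call in either.

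Of the 120 windows of 1 kb within 10 kb of the starts, 109 had at least 20 calls in both samples, and 11 of these were at or under 30% in both (10.1%), beside 8.63% of windows around all gene ends. SOST and DKK1 had 3 each, FGF23 and PDPN 2 each, MEPE 1 and DMP1 none. The lowest was the window from +3 to +4 kb of SOST, with 76 sites at 2.09% in Bone_1 and 3.34% in Bone_2. Of the 109 windows, 13 were higher in Bone_2 (11.9%), beside 10.1% around all gene ends. They included the neighbouring window of SOST from +2 to +3 kb, at 5.75% and 19.8%, and the window from +9 to +10 kb of FGF23, at 5.64% and 12.4%, both at the dense blocks.

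**Figure D4:**
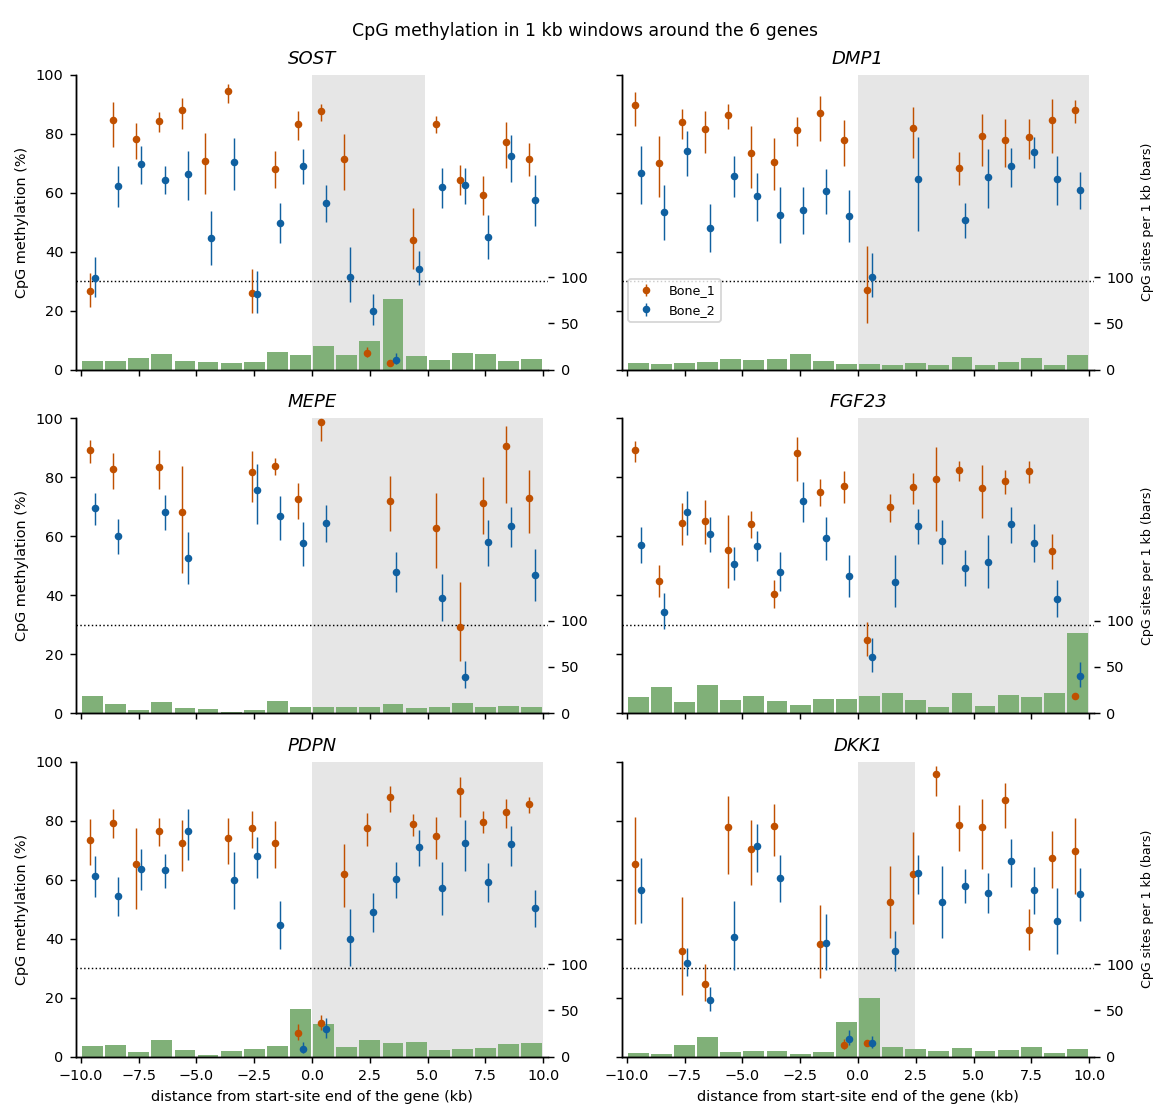
Methylation in percent (left axis) of 1 kb windows from -10 to +10 kb around the start of each gene, for Bone_1 in orange and Bone_2 in blue with 95% Wilson intervals, where both samples had at least 20 calls. Grey shading marks the gene, green bars the CpG sites per window (right axis) and the dotted line 30%: PDPN and DKK1 dip at the start, SOST and FGF23 in CpG-dense windows inside the gene, SOST and DKK1 also upstream, and FGF23 and DMP1 in the first kb of the gene.

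Genes with the most similar profile were sought by the mean absolute difference over up to 40 window values (20 windows in 2 samples), with at least 36 shared. For SOST these were MMP25 (11.5 percentage points over 40 values) and LOC101903586 (12.4 over 36). For DMP1 they were LOC132345376 (4.97) and FAM169A (6.48), both over 36. FGF23 was nearest to OR5B142 (10.7) and PDILT (10.8), PDPN to DLGAP4 (6.69) and TMEM37 (6.99), and DKK1 to RAP1GAP2 (10.1) and DRAXIN (10.4). MEPE had too few covered windows.

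Related genes were compared by the CpG-richer of their 2 end windows, since their strand is not given. It is the promoter in 5 of the 6 genes above and, by the orientation read from DSPP alone, the other end in DMP1. For all genes, 58.8% of these ends were at or under 30% in both samples, and 59.6% of genes had either end that low. The matrix relatives were methylated, with 0 of 2 low: SPP1 (osteopontin) was at 46.0% in Bone_1 and 49.2% in Bone_2, and DSPP at 83.3% and 67.3%, while IBSP had too few calls in Bone_1 at its richer end to be counted. Of Wnt receptors and antagonists, 11 of 14 were low, from FRZB (1.31% and 2.11%) and LRP6 (3.76% and 0.659%) to DKK4 (64.4% and 70.9%) and KREMEN1 (83.3% and 71.3%). SOSTDC1, the closest relative of SOST, was at 54.7% and 37.7%. Of phosphate and mineral genes, 8 of 11 were low. SLC20A1, a phosphate transporter, was at 0.928% and 0.685% and ANKH at 0.952% and 1.76%, while ALPL, the bone alkaline phosphatase, was at 72.9% and 54.1% and the renal transporter SLC34A1 at 74.8% and 53.7%. PHEX, of the same list, was not low either, at 72.6% in Bone_1 and 49.0% in Bone_2.

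In the list of other genes expressed by osteocytes, 8 of 8 were low, from PTPRZ1 (4.13% and 1.78%) and RELN (3.62% and 2.42%) to GJA1 (23.7% and 16.7%) and CAPG (27.3% and 16.8%). The methylated ends of SOST, DMP1, MEPE and FGF23 thus stood beside low ends in the genes of this list, with no test of the difference. That contrast depends on which genes the list holds, as PHEX and SPP1, kept in other lists, were not low. In DMP1 the end used is not the promoter, by the orientation read from DSPP alone. Its promoter was at 62.7% in Bone_1 and 37.0% in Bone_2. Of osteoblast genes, 4 of 7 were low, from DLX5 (2.83% and 7.85%) to RUNX2 (87.0% and 60%). The other RUNX2 end was at 27.3% and 28.5%, so 5 of 7 had a low end.

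Genes of other cells that bone can hold ranged from unmethylated to highly methylated ends. Of blood and marrow genes, 1 of 11 was low, LAPTM5 (25.2% and 23.7%). The next, CD79A, was at 22.2% and 32.6%, and the highest were GATA1 (84.2% and 65.7%) and CD3E (85.8% and 69.0%). Counting either end, 3 of 11 were low, since the other end was at 17.0% and 13.7% in CD3E and 23.3% and 22.8% in CD79A. Of osteoclast genes 3 of 6 were low, with CALCR lowest (3.31% and 4.50%) and DCSTAMP highest (90.3% and 73.6%). Fat genes were low in 1 of 4 (LEP, 20.7% and 27.1%, with PLIN1 highest at 87.2% and 71.3%) and muscle genes in 2 of 4 (from ACTA1, 7.79% and 2.59%, to MYH2, 84.2% and 57.1%). Cartilage genes were low in 4 of the 4 with enough calls (from COL2A1, 2.46% and 2.07%, to MATN3, 23.8% and 19.7%). COL10A1, left out with 19 calls in Bone_1, was methylated, at 94.7% there and 77.0% in Bone_2 (305 calls). Among markers of lymphatic vessels and podocytes, which also make PDPN, 3 of 5 were low, from FLT4 (8.95% and 9.13%) to LYVE1 (55.0% and 39.4%). Genes used in every cell were low in 5 of 5, from GAPDH (0.720% and 0.575%) to RPLP0 (7.01% and 3.84%), and liver genes in 1 of 4, from APOA1 (6.72% and 23.3%) to ALB (93.3% and 70.3%). What the cells in these samples were cannot be read from these levels.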

How the data were processed

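WGBS was measured in 2 bone samples. The authors trimmed and mapped the reads with Bismark, removed duplicates and deposited raw counts, giving for every CpG cytosine on either strand its methylated and its unmethylated reads. The submitters' processing notes name FastQC 0.11.5, Trim Galore 0.4.5, Bowtie2, Bismark 0.19.0 and ARS-UCD1.2, whereas the paper's methods name another assembly. Sequences and exons were not used here.

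Strands were summed into CpG sites. Bone_1 held 582241763 calls and Bone_2 440334436, with a median of 13 and 14 calls per site on chromosomes 1 to 29 and X. Regions needed at least 20 calls in each sample. Samples were compared by two-sided Fisher's exact tests on summed calls, and by the same test against the genome-wide odds ratio, with Benjamini-Hochberg adjustment at 0.05 over all regions. Only the test against equality was checked on simulated data, with independently drawn calls. That check therefore does not cover calls that share a read, nor the test against the genome-wide odds ratio. Intervals and limits after a count of 0 (3 calls of the total) reflect counting error alone. The authors removed duplicates, but without molecular identifiers it cannot be checked that no PCR copy remained.

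Both ends of all other genes served as gene-end windows, because the gene table has no strand. This replaced the planned fit over promoters. All 6 genes are described. In each list, the genes with the lowest and the highest level were named, a pair of each in lists of at least 8 genes. SOSTDC1, PHEX and COL10A1 were named besides, chosen after their values were seen. An item of the osteoblast list is not reported here. The genes and lists were chosen with earlier results of these data known. The alternatives were a minimum of 5 calls per site, unweighted means, leaving out the deepest sites, shorter and longer promoters, gene bodies without their first 500 bp, other minimum calls and limits, a difference of at least 20 points, and leaving out each sample. Added after seeing the data were the unweighted body difference, the other gene end and low blocks at 20%. Scripts ran under Python 3.11.15 with scipy 1.17.1, numpy 2.4.6, matplotlib 3.10.9 and pandas 2.3.3.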

Additional observations from a re-analysis of the deposited data

How the results depend on the processing

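Under the 5 other promoter lengths, weightings and site filters, the mean promoter level ranged from 68.1 to 74.1% in SOST, 35.2 to 58.8% in DMP1, 64.2 to 72.1% in MEPE, 55.5 to 60.8% in FGF23, 2.84 to 12.3% in PDPN and 0.833 to 7.58% in DKK1. The lowest values of DMP1 and MEPE came from the shortest promoter, which held a single site in each. The site had 6 and 27 calls in DMP1 and 13 and 25 in MEPE, so Bone_1 was under the minimum of 20. Leaving out the deepest sites changed none of the 6 levels, and the minimum of 5 calls per site changed neither DMP1 nor MEPE. At the other gene end, which would hold the start if the orientation were wrong, the 6 levels were 61.9 to 74.5%. The promoter differences that changed were these: averaging sites gave DMP1 -7.20 points, a promoter from 2000 bp upstream gave DKK1 5.19 points (Fisher's exact test, adjusted p = 1.05e-04), and against the genome-wide odds ratio the difference no longer passed for DMP1 (-25.7 points), MEPE (-17.4), FGF23 (-22.8) and PDPN (-4.21), and passed for DKK1 (1.44). With a promoter from 250 bp upstream to 50 bp downstream the FGF23 difference was -37.7 points and that of DKK1 -1.67 in place of 1.44 points, neither DKK1 value passing the test, and DMP1 and MEPE had too few calls for a test. Averaged over sites with at least 5 calls in both samples, the body difference reversed in SOST (-11.1 points in place of 4.90), FGF23 (-18.2 in place of 4.79) and DKK1 (-2.58 points). With the minimum of 5 calls applied to each sample separately, the site means of Bone_1 and Bone_2 were 28.4% and 24.4% in SOST, 47.6% and 48.7% in FGF23 and 13.3% and 13.1% in DKK1. Those means need not cover the same sites in both samples. Calls over all windows fell from 28711 to 9507 gene ends and from 19012 to 3185 gene bodies with a required difference of 20 points. Against the genome-wide odds ratio, the share of gene-end calls that were lower in Bone_2 went from 78.2% to 42.8%, and that of gene bodies from 84.3% to 45.4%. With 20% as the limit, 7 windows in place of 11 were low in both samples and 12 low blocks in place of 14 were found. No paired analysis was possible because there is 1 group only. With 2 libraries, leaving out either sample leaves no comparison between them.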

Other observations

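Low blocks continued into the neighbouring intervals of some genes. Between DUSP3 and MEOX1, the genes on either side of SOST, 85.9 kb held 12 low blocks, and the densest outside SOST lay from 32347 bp past its start (chromosome 19, positions 43615794 to 43616900), on the side of MEOX1. Its 64 sites in 1108 bp were at 6.50% in Bone_1 (4.86 to 8.64%, 662 calls) and 6.18% in Bone_2 (4.31 to 8.79%, 453 calls). A distant bone enhancer of SOST is known on that side of the human gene, but no sequence was compared here, and the blocks were not matched to it. Between FGF6 and TIGAR, around FGF23, 48.9 kb held 10 blocks, of which 6 lay between -36730 and -24913 bp from FGF23.

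The intervals of the other genes held fewer blocks for their length: 2 in 61.3 kb around DMP1, 2 in 179 kb around MEPE, 3 in 190 kb around PDPN and 7 in 558 kb around DKK1. The genome-wide density was 2.93 per 100 kb. The intergenic block of DMP1, 22182 bp past its start, held 7 sites at 20.6% and 16.3%, and that of MEPE, 161515 bp past its start towards SPP1, held 12 sites at 8.70% and 16.6%.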
